A study of Mus musculus with 7 samples.

Results

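Chemokines and chemokine receptors were analysed in whole liver of mice with and without Rbpj, the DNA-binding effector of Notch signalling. Members were all genes whose name on the array begins with Ccl, Cxcl, Cx3cl, Xcl, Ccr, Cxcr, Cx3cr or Xcr followed by a digit. This rule took 54 of the 35715 gene names on the array, of which 53 are described, 35 ligands and 18 receptors read by 68 probes. Relatives with other names, such as platelet factors and scavenging receptors, were outside the rule and are given as a list of their own.

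Gene expression was measured with 1-colour arrays, 1 array per animal, in 4 Rbpj+/+ mice (+/+_1155, +/+_1156, +/+_1024 and +/+_991) and 3 Rbpj-/- mice (-/-_N3, -/-_N5 and -/-_2866). Values of single animals are given in this order. All mice were on the C57BL/6J background, 4 weeks old and untreated. Both groups carried Rbpj flox/flox, and they differed in the Cre transgene, as the Rbpj+/+ mice were AlfpCre- and the Rbpj-/- mice AlfpCre+. The Alfp promoter, built from albumin and alpha-fetoprotein control regions, drives Cre in hepatocytes and cholangiocytes from before birth. The deletion is therefore directed at the liver epithelium, and leukocytes, endothelial and stellate cells in the same RNA are not its target. Rbpj-/- mice are labelled as cholestatic and Rbpj+/+ mice as free of cholestasis.

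Rbpj itself was read by 2 tested probes. The brighter of them (chr5:54048503-54048562, mm9) had normalized log2 intensities of 0.97, 0.29, 0.33 and 0.81 in the Rbpj+/+ mice and of −0.35, −0.78 and −0.48 in the Rbpj-/- mice. All Rbpj-/- animals lay below all Rbpj+/+ animals, with a log2 difference of −1.13 (standard error 0.24, adjusted p = 0.0115 from limma). The other probe, which the array's design places on chromosome 6, gave −1.63 (adjusted p = 0.0723). It was above background on 4 Rbpj+/+ and 2 Rbpj-/- arrays and so entered the test through the Rbpj+/+ arrays alone. Its values overlapped, with −2.22 in -/-_N3 and −2.74 in +/+_1155. Whether the brighter probe lies in the deleted part of the gene is not given in the sources used here. The 6 hepatocyte markers were well above background on all 7 arrays. Between 41.1% and 64.9% of the probes were well above background per array, and with 7 arrays the precision is limited by their number. The median intensity was 18.7 on array +/+_1156 and 29.6 on array -/-_N3, and between 4.99 and 7.75 on the other 5 arrays. All arrays lay on 1 slide, with the Rbpj+/+ arrays in its first row and the Rbpj-/- arrays in its second, so row and genotype cannot be told apart. Nothing in the labels ties animals to litters, and p-values measure the spread between these 7 animals.

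Chemokines are small secreted proteins that guide leukocytes along a gradient, and they are classed as CC, CXC, CX3C or C by the spacing of their first cysteines. They bind receptors with 7 transmembrane helices that signal through inhibitory G proteins, and a receptor often takes several ligands. In the liver, Kupffer cells, hepatocytes, endothelial and stellate cells can release them. Cholestasis is known to come with ligands that call neutrophils and monocytes to the injured parenchyma. Throughout, a level is a log2 intensity after subtraction of the array's 75th percentile, so 0 is that percentile. A difference is Rbpj-/- minus Rbpj+/+ on the log2 scale. Levels of different genes come from different probes and were not compared with each other.

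Chemokine genes changed in both directions, and more members rose than fell. A gene was tested where every array of a genotype, or of both, had its probe well above background. These were 29 members, 21 ligands and 8 receptors. At an adjusted p below 0.1, 20 of the 29 were called, against 34.2% of the 18770 genes tested on the array. Higher in Rbpj-/- liver were 15 members (background 14.6%), namely 12 ligands and 3 receptors. Lower were 5 members (background 19.6%), all of them ligands. The 29 include 8 genes that entered the test through the Rbpj-/- arrays alone, where dim Rbpj+/+ values are built into the selection, and 1 gene, Cxcl13, that entered through the Rbpj+/+ arrays alone. The following counts therefore rest on the 20 members above background on all 7 arrays. Of these, 14 were called, against 33.3% of all genes so detected. They split into 9 higher and 5 lower, where 12.4% and 20.8% of all such genes were called in these directions. Their median difference was 0.35, and that of all 16532 genes was −0.16. In 13 of the 20 members the genotypes were apart in every animal, against 36.7% of such genes. No overlap was found in 19 of all 29 tested members (background 36.5%), and for each of these 19 the exact two-sided permutation test over the 35 assignments of the animals gave p = 0.0571, which is as small as this number of animals can give.

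**Figure D1:**
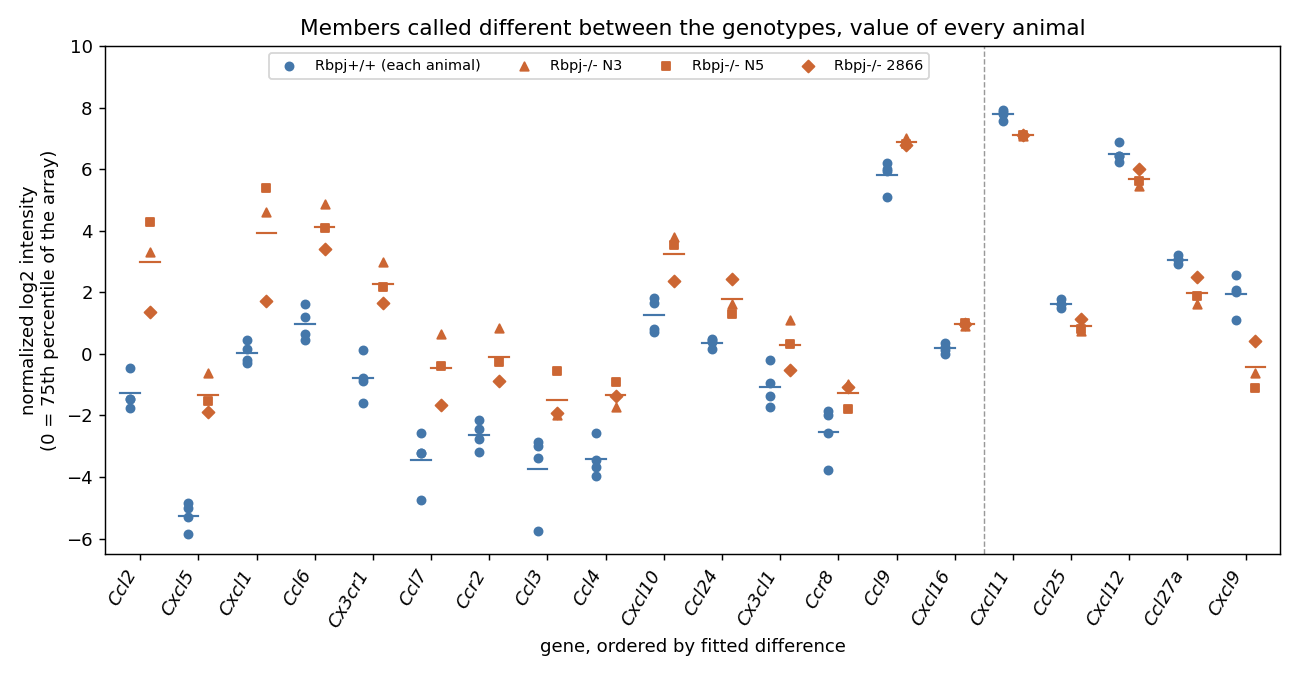
Normalized log2 intensity (y axis, 0 is the 75th percentile of the array) of the 20 members called different, ordered by fitted difference. The places of Cxcl5 and Ccl3 are not measured, as no Rbpj+/+ array had them above background. Points are single animals, circles Rbpj+/+ and the other symbols Rbpj-/- animals by name, short lines are group means, and the dashed line parts the 15 higher from the 5 lower members. The Rbpj-/- animals spread most for Ccl2 and Cxcl1, from 1.37 to 4.28 and from 1.72 to 5.39.

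The 3 Rbpj-/- animals differed among themselves. Animal -/-_2866 had the lowest Rbpj-/- value in 10 of the 15 higher members, -/-_N3 the highest in 9 and -/-_N5 the highest in 5. Ccl24 was the member in which -/-_2866 was the highest. Array -/-_N3 was also the Rbpj-/- array with the highest median intensity. Without -/-_N3 and +/+_1156, the array of each genotype with the highest median intensity, 18 members were called, 13 higher and 5 lower. Over all genes, 5494 of 19118 were then called, 2256 higher and 3238 lower.

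Neutrophil-attracting CXC ligands are the ones with a glutamate-leucine-arginine motif, which bind Cxcr2. Cxcl1, which all 7 arrays measured, rose in Rbpj-/- liver. Cxcl5 rose too but entered the test through the Rbpj-/- arrays alone, and the other 3 could not be tested. Cxcl1 (chr5:91321845-91321904, mm9), the keratinocyte chemoattractant, had levels of 0.16, −0.30, −0.20 and 0.46 in the Rbpj+/+ mice and of 4.62, 5.39 and 1.72 in the Rbpj-/- mice. Animals -/-_N3 and -/-_N5 stood far above the Rbpj+/+ range and -/-_2866 above it by less. The difference was 3.88 (standard error 0.74, adjusted p = 0.00821), a 14.7-fold higher mean, with a range of 3.14 to 4.98 over the fits that left out an animal. Cxcl5 (chr5:91190490-91190549, mm9), which acts on the same receptor, was above background on none of the 4 Rbpj+/+ arrays and on all 3 Rbpj-/- arrays. Its levels were −5.86, −5.29, −4.84 and −5.01 in Rbpj+/+ mice and −0.63, −1.54 and −1.89 in Rbpj-/- mice. Since no Rbpj+/+ array measured it, the rise is given as at least 3.99-fold. The adjusted p of 0.00044 from limma belongs to the fitted difference, which rests on Rbpj+/+ values below background, and not to this bound. For such a bound, each Rbpj+/+ array was given its lowest signal well above background, or the probe's own value if that was higher, and the Rbpj-/- mean was divided by the mean of these. Cxcl2 was above background on -/-_N3 alone (level −2.14), Cxcl3 on the Rbpj+/+ array +/+_1156 alone (level −2.82), and Cxcl15 on no array.

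Cxcl1 and Cxcl2 lie next to each other, and their promoters are shown because a site for NF-kB, the factor that drives inflammatory genes, is known in both while the detection of the neighbours differed. The 250 bases before the transcription start are from RefSeq (GRCm38.p6), at chr5:90890995-90891244 and chr5:90903649-90903898, both on the plus strand, with matches to GGNNTTTCC, part of the kB site, on either strand in capitals.
Cxcl1: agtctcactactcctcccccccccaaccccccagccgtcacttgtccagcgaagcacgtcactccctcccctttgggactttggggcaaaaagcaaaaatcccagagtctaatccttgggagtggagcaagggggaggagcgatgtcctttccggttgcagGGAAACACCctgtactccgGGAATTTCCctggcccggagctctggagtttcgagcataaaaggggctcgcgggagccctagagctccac
Cxcl2: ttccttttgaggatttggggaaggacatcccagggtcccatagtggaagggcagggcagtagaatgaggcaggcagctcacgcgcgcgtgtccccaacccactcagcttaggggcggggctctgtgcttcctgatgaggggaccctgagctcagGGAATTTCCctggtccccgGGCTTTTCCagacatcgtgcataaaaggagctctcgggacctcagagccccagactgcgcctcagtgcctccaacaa
Each window holds 2 matches, which begin 89 and 70 bases before the start in Cxcl1 and 96 and 77 bases before it in Cxcl2, and GGAATTTCC stands in both. Over all RefSeq promoters, 4.93% of 32851 such windows hold a match. Of the 39 members with a window, 8 hold it, namely Cxcl1, Cxcl2, Cxcl3, Cxcl9, Cxcl10, Ccl9, Ccl20 and Ccr3. Of these 8, Cxcl1, Cxcl10 and Ccl9 were called higher, Cxcl9 was called lower, and the other 4 were not tested. A match is a description of the letters and no evidence of binding.

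The interferon-inducible CXC ligands, which share the receptor Cxcr3 on T and NK cells, moved apart. Cxcl9 and Cxcl11 fell while their neighbour Cxcl10 rose. Cxcl9 (chr5:92752191-92752250, mm9), a ligand that interferon gamma induces in macrophages and endothelium, had levels of 2.08, 1.09, 2.0 and 2.56 in the Rbpj+/+ mice and of −0.62, −1.11 and 0.40 in the Rbpj-/- mice. It was lower in 3 of 3 Rbpj-/- animals, with a difference of −2.38 (standard error 0.42, adjusted p = 0.00633). A second Cxcl9 probe gave −1.83 (adjusted p = 0.0267). Cxcl10 (chr5:92775781-92775840, mm9), which answers to type I interferon and to tumour necrosis factor as well, had levels of 1.67, 0.81, 0.71 and 1.81 in Rbpj+/+ and of 3.80, 3.53 and 2.37 in Rbpj-/- mice. All Rbpj-/- animals lay above the Rbpj+/+ range, and the difference was 1.98 (standard error 0.41, adjusted p = 0.011). Cxcl11, whose reading frame is known to be shifted in C57BL/6 mice, ranged from 7.55 to 7.90 in Rbpj+/+ and from 7.09 to 7.12 in Rbpj-/- liver. Its difference was −0.67 (standard error 0.18, adjusted p = 0.027). The call was lost under quantile normalization (−0.35, adjusted p = 0.237) and in the authors' processed values (−0.35, adjusted p = 0.24), and a second Cxcl11 probe gave −0.53 and did not pass (adjusted p = 0.177). Cxcl10 and Cxcl11 lie within the bounds of another annotated gene, Art3.

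The promoters of Cxcl9 and Cxcl10 are shown because these neighbours of 1 class moved in opposite directions. They are at chr5:92328080-92328329 and chr5:92348890-92349139 (GRCm38.p6), both on the minus strand and printed in the direction of the gene, with matches to the same part of the kB site and to TTTCNNTTT, part of the interferon response element, in capitals.
Cxcl9: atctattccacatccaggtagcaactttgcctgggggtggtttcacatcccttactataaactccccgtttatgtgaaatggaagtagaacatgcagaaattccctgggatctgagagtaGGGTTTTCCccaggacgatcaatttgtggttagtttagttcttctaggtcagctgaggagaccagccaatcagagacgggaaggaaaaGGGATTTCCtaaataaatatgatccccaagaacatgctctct
Cxcl10: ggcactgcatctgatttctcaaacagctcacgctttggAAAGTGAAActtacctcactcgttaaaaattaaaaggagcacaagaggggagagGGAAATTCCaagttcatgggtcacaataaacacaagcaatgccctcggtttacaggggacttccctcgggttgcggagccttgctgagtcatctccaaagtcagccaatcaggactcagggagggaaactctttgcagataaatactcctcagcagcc
Matches to the kB part begin 130 and 42 bases before the start in Cxcl9 and 158 bases before it in Cxcl10. The part of the interferon response element was found in Cxcl10 alone of the pair, 212 bases before the start. It is in 9.37% of all windows and in those of 5 of the 39 members, namely Ccl19, Ccl28, Ccr1, Cxcl10 and Cxcl14.

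Among the other CXC ligands, Cxcl16 rose, Cxcl12 fell, and Cxcl13 and Cxcl14 were not called. Cxcl16, a membrane-bound ligand of Cxcr6 that also takes up oxidised lipoprotein, lay between 0.01 and 0.37 in Rbpj+/+ and between 0.92 and 1.0 in Rbpj-/- mice. The difference was small but the spread within the genotypes was smaller, at 0.78 (standard error 0.18, adjusted p = 0.0158). Cxcl12, the stromal ligand of Cxcr4 that retains leukocytes and progenitors in tissue, had levels of 6.88, 6.44, 6.22 and 6.44 against 5.47, 5.60 and 6.0. Its difference was −0.81 (standard error 0.23, adjusted p = 0.035) and lost the call without -/-_N3 (adjusted p = 0.116) or -/-_N5 (adjusted p = 0.118). It was also lost with normexp correction (−0.47, adjusted p = 0.134), under quantile normalization (−0.59, adjusted p = 0.107), in the authors' processed values (−0.59, adjusted p = 0.109), with the mean of all probes (−0.48, adjusted p = 0.145) and with no filter on detection (adjusted p = 0.205). A second probe, designed to another transcript of Cxcl12, gave −0.15 (adjusted p = 0.706), so the probes disagree. Ackr3, the other receptor of Cxcl12, looked up after the values were seen, rose by 2.53 (standard error 0.69, adjusted p = 0.0305). It was above background on 3 of 4 Rbpj+/+ and 3 of 3 Rbpj-/- arrays. Ackr3 thus entered the test through the Rbpj-/- arrays alone, and the size rests in part on the value of −5.55 in +/+_1156. Cxcl13, which attracts B cells to follicles, was above background on all 4 Rbpj+/+ arrays and on 1 Rbpj-/- array. Its difference of −1.25 (standard error 0.50) missed the threshold (adjusted p = 0.102), and it passed without +/+_1155 (adjusted p = 0.0422) or -/-_N3 (adjusted p = 0.0787). Cxcl14 differed by 0.27 (standard error 0.43, adjusted p = 0.677), with overlapping values, and Cxcl17 was above background on no array.

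Ligands of Ccr2, the receptor that brings inflammatory monocytes into tissue, showed the largest rise among all called members that both genotypes measured. Ccl2 (chr11:81850650-81850709, mm9), the monocyte chemoattractant, had levels of −1.47, −1.45, −1.74 and −0.46 in the Rbpj+/+ mice and of 3.30, 4.28 and 1.37 in the Rbpj-/- mice. As for Cxcl1, -/-_N5 was the highest and -/-_2866 the lowest of the Rbpj-/- animals. The difference was 4.26 (standard error 0.61, adjusted p = 0.00278), a 19.2-fold higher mean, with a range of 3.61 to 5.07 over the fits that left out an animal. The Ccl2 probe was spotted 10 times per array, and the SD between its spots was 0.07 to 0.45, below the SD between animals of 0.56 in Rbpj+/+ and 1.48 in Rbpj-/- liver. Ccl7 (chr11:81860656-81860715, mm9), its neighbour and a ligand of Ccr2 too, had levels of −3.21, −2.56, −4.76 and −3.20 against 0.66, −0.39 and −1.66. It was above background on 2 Rbpj+/+ arrays and on all Rbpj-/- arrays. Ccl7 thus entered the test through the Rbpj-/- arrays alone, where dim Rbpj+/+ values are built in. The difference was 2.97 (standard error 0.61, adjusted p = 0.0113). Ccl8 and Ccl12 were above background on -/-_N3 and -/-_N5 and on no other array. In -/-_2866 both lay within the range of the Rbpj+/+ values, and no fold is given.

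The ligands of Ccr1 and of other receptors, released by macrophages and acting on monocytes, T cells and neutrophils, were all tested. Ccl6 and Ccl9 were called higher among the 3 that all 7 arrays measured, and Ccl3 and Ccl4, called higher as well, entered the test through the Rbpj-/- arrays alone. Ccl6 (chr11:83401997-83402056, mm9), a macrophage ligand of Ccr1 found in rodents, had levels of 1.21, 0.45, 0.65 and 1.61 in the Rbpj+/+ mice and of 4.86, 4.09 and 3.39 in the Rbpj-/- mice. The genotypes were apart by more than the spread within either, with a difference of 3.14 (standard error 0.39, adjusted p = 0.00167). Ccl9, the neighbour of Ccl6 and also a Ccr1 ligand, ranged from 5.11 to 6.20 in Rbpj+/+ and from 6.78 to 7.01 in Rbpj-/- mice. Its rise was 1.06 (standard error 0.27, adjusted p = 0.025). Ccl3, macrophage inflammatory protein 1 alpha, was above background on no Rbpj+/+ and on all Rbpj-/- arrays, with levels of −5.76, −3.39, −2.87 and −2.98 against −2.0, −0.56 and −1.94. It was at least 3.41-fold higher (adjusted p = 0.0459 for the fitted difference), and the call was lost without -/-_N5 (adjusted p = 0.166). Ccl4, its partner at the same locus, was above background on +/+_991 alone among the Rbpj+/+ arrays. Its levels were −3.68, −3.98, −3.46 and −2.58 against −1.73, −0.91 and −1.37, with a difference of 2.09 (standard error 0.35, adjusted p = 0.00488). The annotated bounds of Ccl3 and Ccl4 overlap. Ccl5, which T and NK cells and platelets carry, ranged from 0.15 to 1.42 in Rbpj+/+ and from 0.31 to 1.96 in Rbpj-/- mice. Its difference of 0.14 (standard error 0.43, adjusted p = 0.842) was within the spread, and without -/-_2866 it was −0.39 (adjusted p = 0.465).

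**Figure D2:**
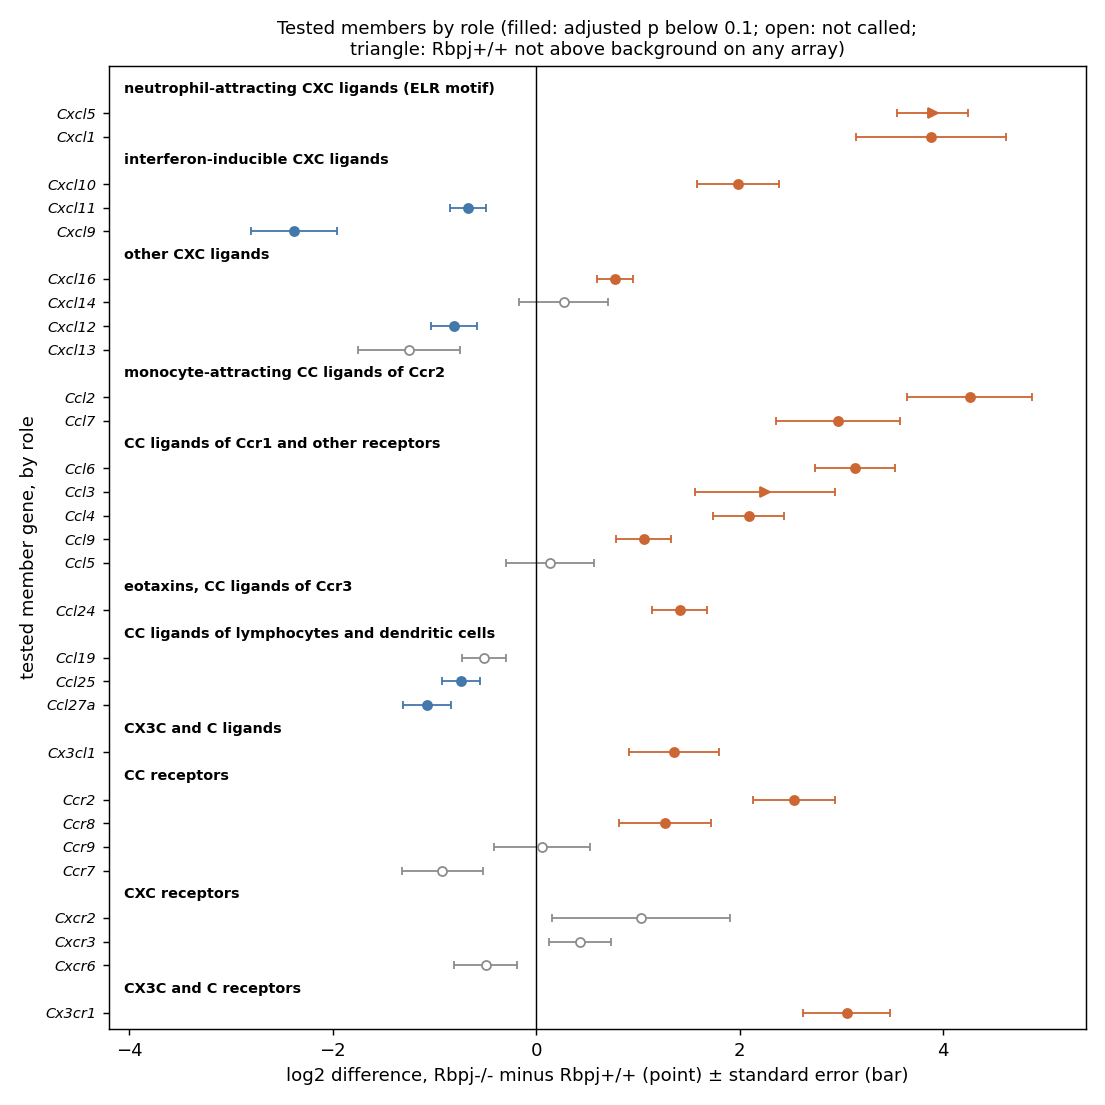
Log2 difference, Rbpj-/- minus Rbpj+/+, of the 29 tested members (x axis, points with the standard error as bars), grouped by role. Filled symbols passed an adjusted p below 0.1, and triangles mark Cxcl5 and Ccl3, which no Rbpj+/+ array measured, so that their fitted difference is no measured size. Among the members with a measured size, the largest rises lie in Ccl2, Cxcl1, Ccl6 and Cx3cr1, and the falls in Cxcl9, Ccl27a, Cxcl12, Ccl25 and Cxcl11.

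Eotaxins act on Ccr3, the eosinophil receptor. Ccl24, the member of this class that liver macrophages are known to release, had levels of 0.48, 0.45, 0.15 and 0.38 in the Rbpj+/+ mice and of 1.62, 1.29 and 2.42 in the Rbpj-/- mice. The difference was 1.41 (standard error 0.27, adjusted p = 0.00892), and here -/-_2866 was the highest animal. The other eotaxins, Ccl11 and Ccl26, were above background on no array. Ccr3 itself was above background on 3 Rbpj+/+ arrays and 1 Rbpj-/- array and was not tested. Of 4 markers of mast cells and eosinophils, Cpa3, Mcpt4 and Epx were above background on no array and none was tested.

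The CC ligands that steer lymphocytes and dendritic cells did not rise in any tested member. Ccl27a, a ligand of Ccr10 known from skin, fell from 2.93 to 3.22 in Rbpj+/+ mice to 1.61, 1.87 and 2.48 in -/-_N3, -/-_N5 and -/-_2866. Its difference was −1.08 (standard error 0.23, adjusted p = 0.0137). A second probe a few bases away gave the same value, −1.08 (adjusted p = 0.0108), while another one at a different place of the locus gave 0.43 and did not pass (adjusted p = 0.291). Ccl27a overlaps the annotated bounds of Il11ra1, the receptor subunit for interleukin 11. Ccl25, the ligand of the gut homing receptor Ccr9, fell from 1.49 to 1.78 in Rbpj+/+ mice to 0.76, 0.80 and 1.13. The difference was −0.74 (standard error 0.19, adjusted p = 0.0231). Ccl19, the Ccr7 ligand that draws T cells and dendritic cells into lymphoid tissue, differed by −0.51 (standard error 0.22) and was not called (adjusted p = 0.119), and it passed without +/+_1156 (−0.63, adjusted p = 0.0505). Its 3 probes, placed at 3 positions of chromosome 4, gave −0.51, −0.12 and 0.48. Ccl22 and Ccl28 were above background on -/-_N3 alone, and Ccl1, Ccl17 and Ccl20 on no array.

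Cx3cl1 and Cx3cr1 form a pair of 1 ligand and 1 receptor. Cx3cl1 is a membrane-bound adhesion molecule of endothelium and epithelium, and Cx3cr1 is carried by monocytes and resident macrophages. The receptor rose with every probe. The brightest probe of Cx3cr1 (chr9:119957811-119957870, mm9) had levels of −0.79, −1.60, −0.89 and 0.13 in the Rbpj+/+ mice and of 2.97, 2.17 and 1.65 in the Rbpj-/- mice. The difference was 3.05 (standard error 0.43, adjusted p = 0.00251). A probe shifted by a few bases gave 3.05 (adjusted p = 0.00325). The last one was above background on no Rbpj+/+ array and entered the test through the Rbpj-/- arrays alone. It was at least 7.06-fold higher (adjusted p = 0.0013 for the fitted difference). Cx3cl1 ranged from −1.72 to −0.21 in Rbpj+/+ and from −0.53 to 1.10 in Rbpj-/- mice, so that the genotypes overlapped. Its rise of 1.35 (standard error 0.44, adjusted p = 0.0567) was lost when +/+_1155, +/+_1024, -/-_N3 or -/-_N5 was left out (adjusted p = 0.11, 0.139, 0.181 and 0.146).

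Among the CC receptors, Ccr2 and Ccr8 rose and none of the 4 tested fell. Both of these and Ccr9 entered the test through the Rbpj-/- arrays alone, where dim Rbpj+/+ values are built in, and Ccr7, the one that all 7 arrays measured, was not called. Ccr2 (chr9:124022948-124023007, mm9), which recognises Ccl2 and Ccl7, had levels of −2.78, −2.43, −3.18 and −2.15 in the Rbpj+/+ mice and of 0.82, −0.25 and −0.87 in the Rbpj-/- mice. It was above background on 3 Rbpj+/+ arrays and on all Rbpj-/- arrays. The difference was 2.54 (standard error 0.40, adjusted p = 0.00407). Ccr8, found on regulatory T cells and skin homing T cells, was above background on 3 Rbpj+/+ arrays. Its rise of 1.27 (standard error 0.45, adjusted p = 0.0731) was lost without +/+_1156, -/-_N3 or -/-_2866 (adjusted p = 0.114, 0.194 and 0.179). Ccr7, the receptor of Ccl19, differed by −0.92 (standard error 0.40, adjusted p = 0.124) and passed without -/-_2866 (−1.43, adjusted p = 0.0197). Ccr9, the receptor of Ccl25, differed by 0.06 (standard error 0.47, adjusted p = 0.936), with 3 Rbpj+/+ arrays above background. Of the untested receptors, Ccr6 was above background on 2 Rbpj+/+ arrays and 1 Rbpj-/- array, and Ccr1, Ccr1l1, Ccr4 and Ccr10 on no array. Ccr1, the receptor of Ccl6 and Ccl9, thus had no measured level beside its raised ligands.

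No tested CXC receptor was called, with adjusted p-values of limma between 0.271 and 0.414. Cxcr2, the neutrophil receptor for Cxcl1 and Cxcl5, was above background on 2 Rbpj+/+ and 3 Rbpj-/- arrays. It ranged from −4.79 to −1.50 and from −3.30 to −0.38, and the difference of 1.03 (standard error 0.88, adjusted p = 0.414) was close to its own error. Cxcr3, the receptor of Cxcl9, Cxcl10 and Cxcl11, differed by 0.43 (standard error 0.31, adjusted p = 0.332). Cxcr6, the receptor of Cxcl16 on liver T and NKT cells, differed by −0.50 (standard error 0.31, adjusted p = 0.271) and by −0.39 with a second probe. These 3 misses do not show that the levels were alike, since the standard errors allow sizeable changes. Cxcr4, the receptor of Cxcl12, was above background on 1 Rbpj+/+ and 2 Rbpj-/- arrays, Cxcr5, the receptor of Cxcl13, on -/-_N3 alone, and Cxcr1 on no array. In the class of C chemokines, which act on cytotoxic cells and cross-presenting dendritic cells, Xcl1 was above background on 1 Rbpj+/+ and 2 Rbpj-/- arrays and its receptor Xcr1 on 1 array of each genotype.

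**Figure D3:**
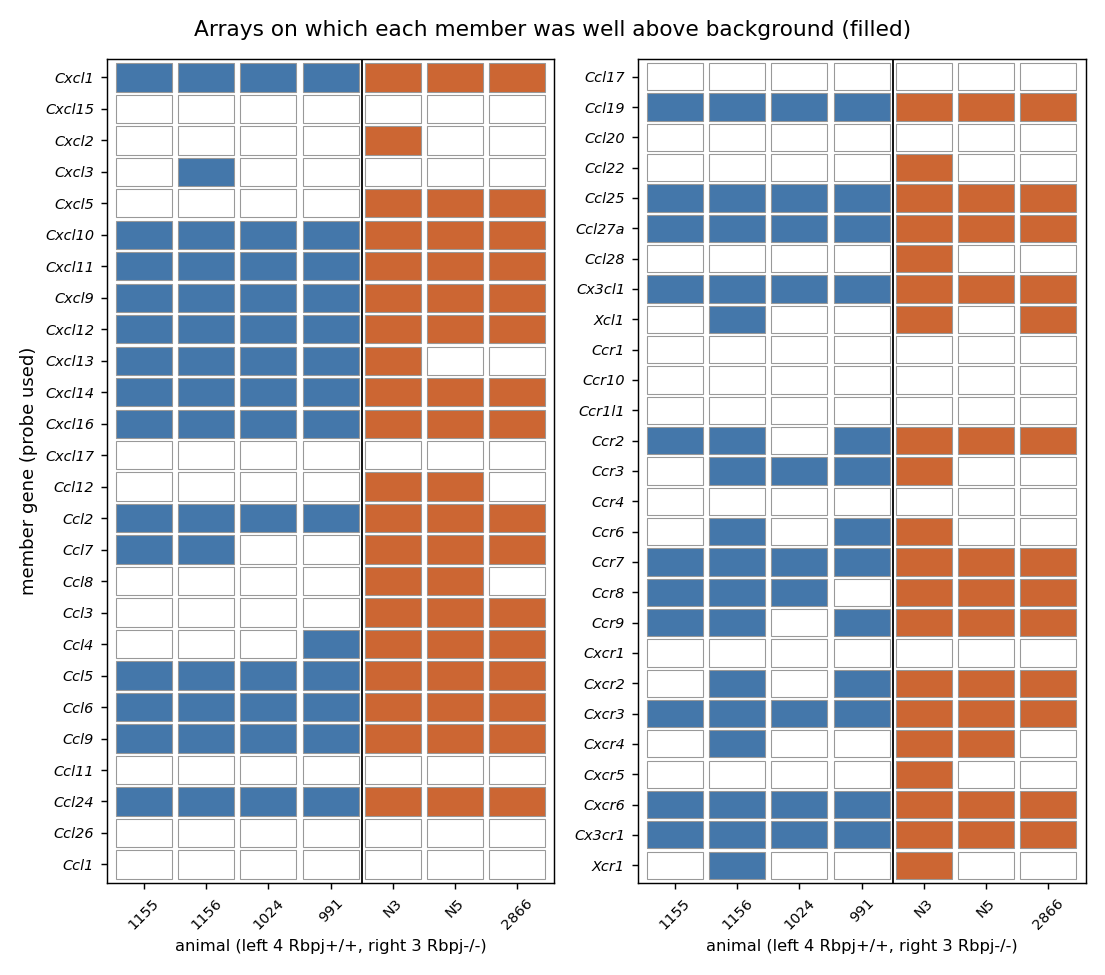
Detection of the 53 members (rows, by role) on the 7 arrays (columns, left 4 Rbpj+/+ and right 3 Rbpj-/-), with filled cells where the probe was well above background. 20 members are filled in all 7 columns and 12 in none, and several cells are filled on the arrays +/+_1156 and -/-_N3 alone.

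Of the 24 members without a test, 12 were above background on no array and 12 on some. Among the latter, Ccl22, Ccl28, Cxcl2 and Cxcr5 were above background on -/-_N3 alone and Cxcl3 on +/+_1156 alone, and Xcr1 on these arrays only. These are the arrays with the highest median intensity, and the part of this brightness in the detection was not tested. In 8 tested members the Rbpj-/- arrays alone were complete (Ccl3, Ccl4, Ccl7, Ccr2, Ccr8, Ccr9, Cxcl5 and Cxcr2), and 6 of these were called higher, where 36.6% of the 1864 genes so detected were. For members near background the size was smaller with normexp correction, which was run with an added offset of 50, and the parts of correction and offset were not separated. The difference was then 0.56 for Cxcl5, 0.77 for Ccl7 and 0.97 for Ccr2, which remained called, and 0.28 for Ccl3, 0.25 for Ccl4 and 0.14 for Ccr8, which did not (adjusted p = 0.314, 0.232 and 0.504).

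Many members lie in groups on the chromosomes, and differences between the members of a group were not tested. In the group of chromosome 5 that begins with Cxcl5, Cxcl5 and Cxcl1 rose 131 kb apart, while Cxcl3 and Cxcl15 between them and Cxcl2 beyond Cxcl1 were not tested. In the second group of chromosome 5, Cxcl10 rose between Cxcl9 and Cxcl11, which fell, all within 36.4 kb. In the first group of chromosome 11, Ccl2 and Ccl7 rose and the other 4 members were not tested. In the second, Ccl9, Ccl6, Ccl3 and Ccl4 rose and Ccl5, at its edge, was not called. On chromosome 9, 7 receptors were placed within 333 kb. Of these Ccr2 rose, Ccr9 and Cxcr6 were not called, and the 4 between were not tested. The probes of different members were unlike, as the best local alignment over 2259 pairs scored 16, where a full match of the 60 bases would score 60.

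**Figure D4:**
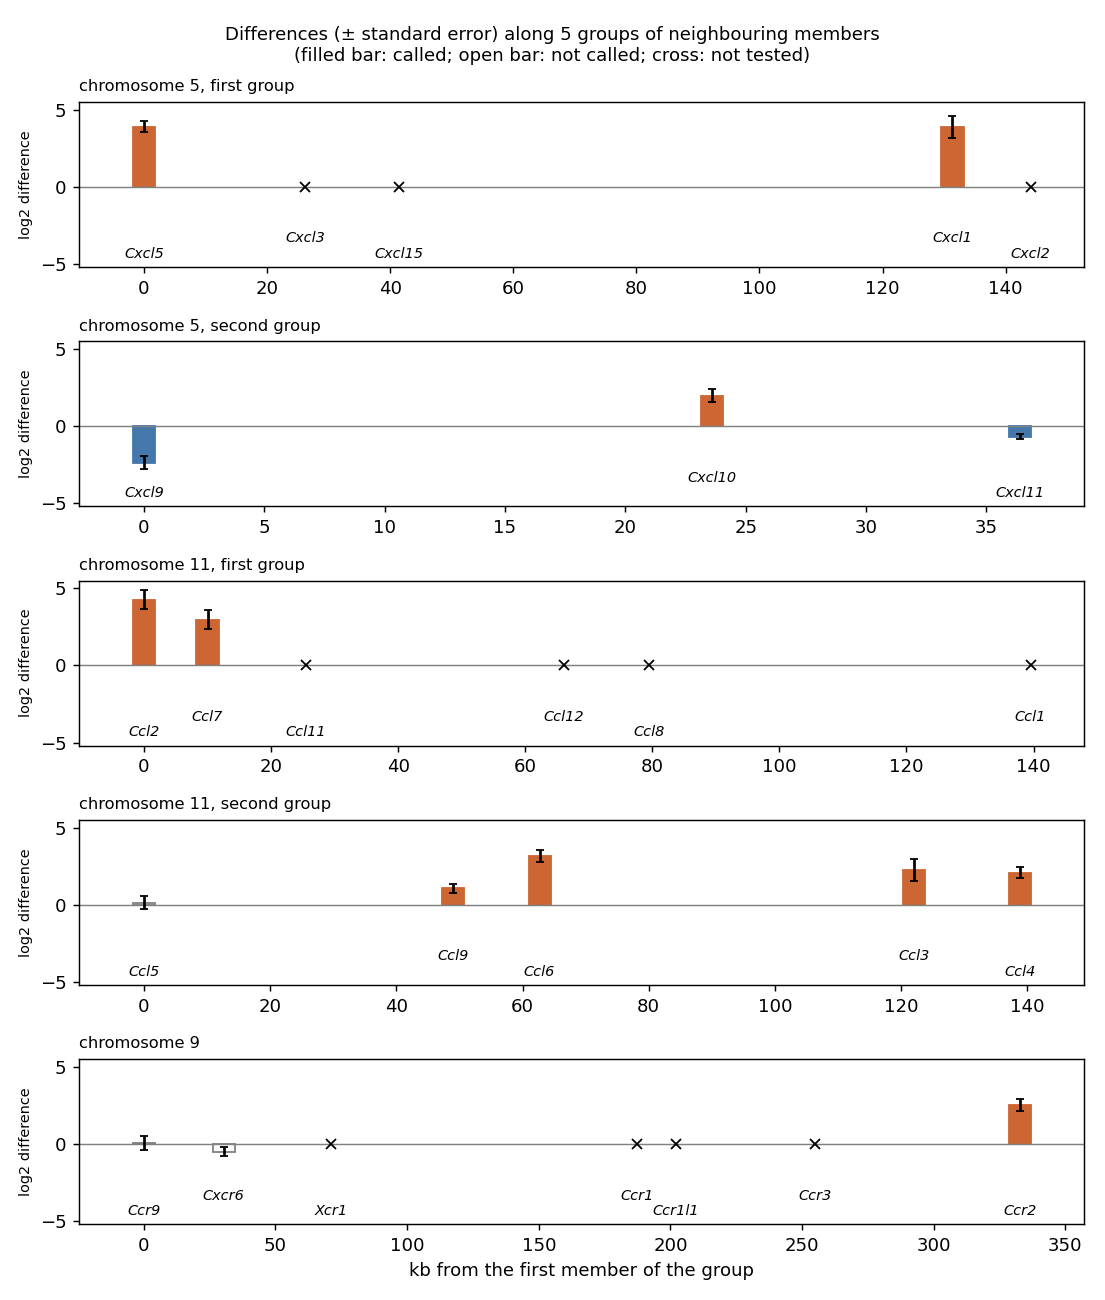
Log2 difference, Rbpj-/- minus Rbpj+/+ (bars, with the standard error), of neighbouring members against their distance in kb from the first member of the group. Filled bars were called, open bars were not, and crosses at 0 mark members that were not tested and have no value; the bars of Cxcl5 and Ccl3 rest on Rbpj+/+ values below background. The bars of Cxcl9, Cxcl10 and Cxcl11 point down, up and down.

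Genes around the chemokine system were counted from 4 lists, over the genes above background on all 7 arrays, of which 12.4% were called higher and 20.8% lower on the whole array. Signalling genes downstream of chemokine receptors were called higher in 12 of 16 and lower in 0, with a median difference of 0.97 against −0.16 over all such genes. In this list Gng2, a G protein gamma subunit, rose by 1.64 (adjusted p = 0.0024). Pik3r5, the adaptor of the G protein-coupled PI3 kinase, was above background on the Rbpj-/- arrays alone. It was at least 2.83-fold higher (adjusted p = 0.0196 for the fitted difference). Of the inflammatory inducers and NF-kB genes, 4 of 9 were higher and 0 lower (median 1.04). Another 4 were called higher that entered the test through the Rbpj-/- arrays alone, Il1a, Il6, Icam1 and Tlr4. Tnfaip3, the feedback inhibitor of NF-kB, had levels of −1.10, −1.34, −1.46 and −0.83 in Rbpj+/+ and of 3.0, 3.57 and 0.88 in Rbpj-/- mice, a rise of 3.67 (standard error 0.55, adjusted p = 0.00334). As in Ccl2 and Cxcl1, -/-_N5 was the highest and -/-_2866 the lowest Rbpj-/- animal. Icam1, an adhesion molecule for neutrophils that 2 Rbpj+/+ arrays measured, rose by 2.08 (adjusted p = 0.0581), and Il17a was above background on no array. Of 11 interferon-induced genes, 1 was higher and 3 were lower (median −0.15), shares near those of all genes, with Igtp, a guanosine triphosphatase induced by interferon gamma, at −1.27 (adjusted p = 0.0216) and Gbp2, another one, at 1.0 (adjusted p = 0.0273). Among the related chemoattractants, scavenging receptors and proteases, 4 of 11 were higher and 1 lower (median 0.40). Ackr1, a scavenging receptor of venular endothelium, rose by 1.52 (adjusted p = 0.024), while Ackr4, which clears Ccl19 and Ccl25, differed by −1.46 without a call (adjusted p = 0.118). Ackr4 was above background on 4 Rbpj+/+ arrays and 1 Rbpj-/- array. It thus entered the test through the Rbpj+/+ arrays alone, and the size rests in part on Rbpj-/- values below background.

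Markers of leukocytes moved in both directions in whole liver, where fewer cells of a type and less RNA per cell cannot be told apart. The summed level of a list is the sum of its normalized intensities in multiples of the array's 75th percentile, in which the brightest probe weighs most. Counts are again over markers above background on all 7 arrays. Macrophage and Kupffer cell markers were higher in 6 of 8 and lower in 0, and their sum was 72.0 to 95.3 in Rbpj+/+ and 377, 259 and 291 in -/-_N3, -/-_N5 and -/-_2866. Of 4 neutrophil markers, 2 were higher and 1 was lower, with sums of 6.22 to 24.9 and of 70.3, 33.6 and 50.1. Both sums were thus higher in 3 of 3 Rbpj-/- animals. Monocyte markers were higher in 1 (Chil3, 3.23) and lower in 1 (Itgam, −1.54) of 3, and their sums overlapped (16.7 to 34.3 against 19.97 to 26.4). Ly6c1, which differed by −0.19 without a call, made up 41.1% to 85.5% of these sums. F13a1 was called higher but entered the test through the Rbpj-/- arrays alone, and Ly6c2 was not on the array. The B cell marker above background on all 7 arrays was lower (1 of 1, sums 1.96 to 4.53 against 0.810 to 1.67). T and NK cell markers were lower in 2 of 5 with 0 higher (31.9 to 43.7 against 13.4 to 21.2), and Klrb1c was above background on no array. Cd4 made up 61.4% to 69.0% of these sums in Rbpj+/+ and 37.1% to 59.5% in Rbpj-/- mice. Cd4 and Cd3e were the lower ones (−1.54 and −0.92). Without a call, Nkg7 differed by −0.42, Cd3d by 0.12 and Gzma by 0.87. Of 3 dendritic cell markers Itgax was higher (1.62) and Siglech lower (−1.15), and the sums of 35.3 to 50.9 against 20.7 to 23.9 were almost those of Siglech, which made up 89.1% to 98.3% of them. The part of these cell types in the differences of the members was not tested.

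Markers of the liver's own cells were read in the same way. Hepatocyte markers were lower in 3 of 6 and higher in 0, with sums of 1912 to 2581 in Rbpj+/+ and of 1306 to 1543 in Rbpj-/- mice. Stellate cell and fibroblast markers were higher in 4 of 5 (12.8 to 21.3 against 27.9 to 49.7) and endothelial markers higher in 2 and lower in 1 of 6 (52.2 to 75.7 against 82.6 to 129). Cholangiocyte markers were higher in 1 of 5 with overlapping sums (1.43 to 2.72 against 1.83 to 3.67). Megakaryocyte and platelet markers had no call in 1, and erythroid markers were lower in 1 of 3, with sums that overlapped in both lists (0.496 to 1.22 against 0.589 to 2.03, and 228 to 515 against 99.6 to 429). Their part in the results was not tested either.

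**Figure D5:**
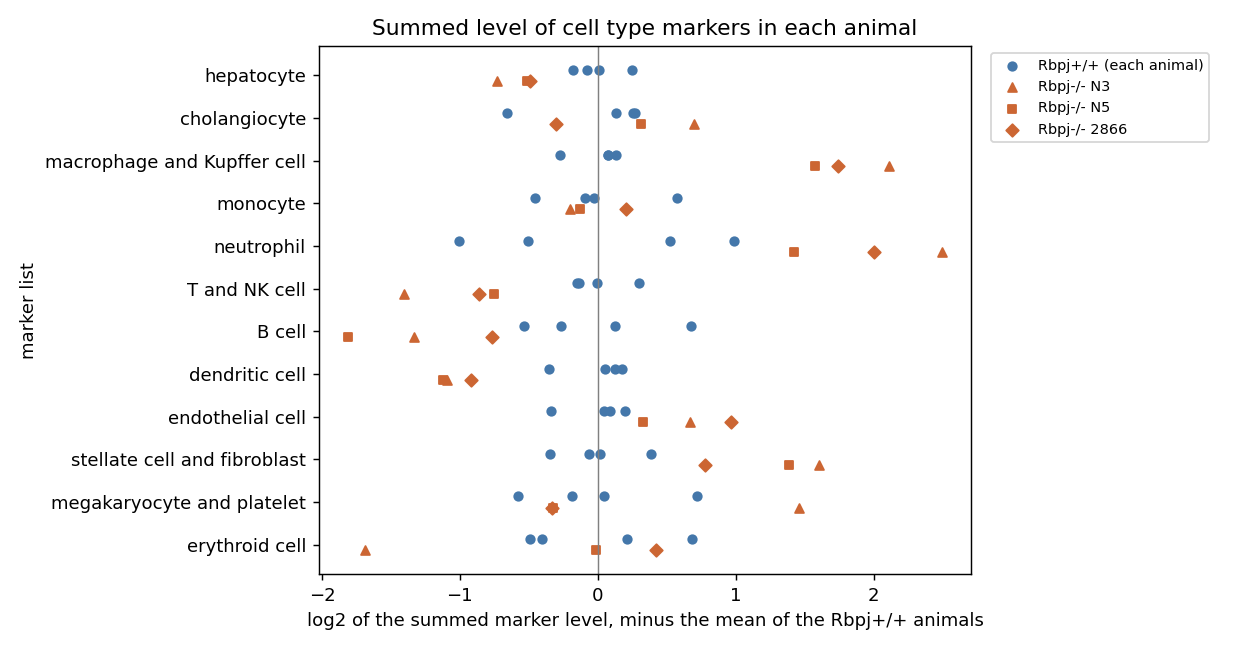
Log2 of the summed level of each marker list in every animal, relative to the mean of the Rbpj+/+ animals (x axis). Circles are Rbpj+/+ and the other symbols Rbpj-/- animals by name, and the list of mast cells and eosinophils is left out because none of its genes was tested. Macrophage, neutrophil, endothelial and stellate cell sums of all 3 Rbpj-/- animals lie to the right of the Rbpj+/+ animals. Clec4g made up 38.2% to 44.1% of the endothelial sums in Rbpj+/+ and 59.3% to 62.9% in Rbpj-/- animals. The sums of hepatocytes, T, B and dendritic cells, the last set by Siglech alone, lie to the left. Cd4 made up 61.4% to 69.0% of the T and NK cell sums in Rbpj+/+ and 37.1% to 59.5% in Rbpj-/- animals.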

How the data were processed

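Agilent mouse 8x60K arrays of 1 dye were hybridised with whole-liver RNA of 4 Rbpj+/+ and 3 Rbpj-/- mice, 1 array per animal. The authors scanned the slide and obtained with Feature Extraction 10.7.3.1 the deposited intensity values, which are background-subtracted signals of single spots without normalization between arrays. The deposited log2 values of the authors' series matrix are centred near 0 on each probe's median. The methods state log2 values after a 75% percentile shift and a baseline shift. They were used as an alternative, and their exact scaling is not settled.

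Here, 1186 spot values with a mark for non-uniformity or a population outlier were removed and none was saturated. The log2 intensities of a probe's spots were averaged and set relative to the 75th percentile of the array. No pseudocount was used. Tested were the 24547 of 55681 probes (18770 genes) that every array of a genotype, or of both, marked as positive, significant and well above background. Genotypes were compared with limma 3.58.1 (lmFit and eBayes) under R 4.3.3. P-values were adjusted over all tested probes by the Benjamini-Hochberg method, with the false discovery rate of 0.1 that the methods use as threshold. Adjusted p-values in the text are from this test. The tested probe with the highest mean stood for its gene. The exact permutation test was run in scipy 1.17.1. Probe coordinates are given in mm9, as in the scanner files. Promoter windows and gene overlaps are from RefSeq (GRCm38.p6), which held all 53 names and promoter windows for 39. The steps were tested on simulated data. Python 3.11.15, pandas 2.3.3, Biopython 1.88 and matplotlib 3.10.9 were used.

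The members and all gene lists were chosen with earlier results of these data known. 1 further member that the rule takes is not reported here. Every other member is accounted for, the 12 called members with the largest absolute difference with the value of each animal. Of each pathway list the 2 genes with the largest absolute difference are named, and of each list the genes above background on no array. Alternatives covered background correction, scaling, filters, variance model, array weights, probe choice, threshold and left-out animals.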

Additional observations from a re-analysis of the deposited data

How the results depend on the processing

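The number of members called (20, 15 higher and 5 lower) moved most with the filter on detection. With no such filter 9 of 53 were called, 8 higher and 1 lower. Over all genes, 1642 of 35715 were then called, 968 higher and 674 lower, against 6412 of 18770 in the main fit. With detection on all 7 arrays required, 9 of 20 were called higher and 6 lower, against 2276 and 3777 of 16554 genes. The number of lower members was 3 under quantile normalization, 3 in the series matrix and 8 with array weights. Of all 18770 genes, 2852, 2807 and 4891 were called lower in these fits, against 3671 in the main fit. Ccr7 passed as lower with detection on all 7 arrays, normexp correction and array weights (adjusted p = 0.0904, 0.0674 and 0.0982). Cxcl13 did so with normexp correction and array weights (adjusted p = 0.0395 and 0.0383), and Ccl19 with array weights (adjusted p = 0.0352). When each animal was left out, 17 to 21 were called, 13 to 15 higher and 4 to 6 lower. Over all genes, 3721 to 7109 were called in these fits, 1851 to 2737 higher and 1870 to 4372 lower. Ccl2, Ccl6, Ccl24, Ccr2, Cx3cr1, Cxcl1, Cxcl5 and Cxcl9 were called under every alternative in which they were tested, and the other 12 lost the call under at least 1. No called member changed direction. The direction turned in 4 uncalled members. Ccl5 was −0.0416 with array weights and lay between −0.392 and 0.434 over the left-out animals. Ccr9 was −0.306 with normexp correction and its offset of 50, −0.136 under quantile normalization and −0.134 in the series matrix, and lay between −0.252 and 0.422 over the left-out animals. Cxcl14 was −0.0588 with array weights, lay between −0.094 and 0.729 over the left-out animals, and was −0.254 without +/+_1156 and -/-_N3, an alternative chosen after seeing the data. Cxcr2 was −0.0055 with normexp correction. Apart from the filter and the left-out animals, the cause was not tested. Members near background, whose signal limits the size that can be given, moved most. No paired analysis was possible because the labels give the genotypes no shared replicate numbers.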
